A study of Mus musculus with 24 samples.

Results

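The 40 liver enzymes described here act in gluconeogenesis and in the breakdown of amino acids and one-carbon units, and were followed across 6 mouse genotypes. They were chosen by name from these pathways, with earlier results of these data known. Matched by their Ensembl identifiers, all 40 were found among the 33019 genes of the count table. All 40 also had enough counts to be tested among 15851 genes. Liver RNA was sequenced in 24 libraries, 4 for each genotype, from C57BL/6J mice aged 2 months. Wild-type livers (WT) were set beside livers with a hepatic knockout of Atg5 (Atg5 KO), a gene needed to build autophagosomes. Another group had a hepatic knockout of Tsc1 (TSC1 KO), which restrains mTORC1, a kinase complex that drives growth. Both knockouts were combined in a double knockout (DKO). The remaining groups carried the Atg5 and Tsc1 knockouts as well, together with a knockout of p62, the autophagy receptor encoded by Sqstm1 (p62 TKO), or of Nrf2, the transcription factor encoded by Nfe2l2 (Nrf2 TKO). The driver of the deletions and the sex of the mice are not named in the labels, which also do not say whether the libraries of a genotype are from different mice. The p-values therefore measure the spread between these samples only.

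Gluconeogenesis turns lactate, alanine and other amino acids into glucose, which the liver releases during fasting under the control of glucagon and insulin. The hepatocyte is also the main site where tyrosine, tryptophan, histidine, proline and lysine are broken down, and their carbon enters gluconeogenesis or the citric acid cycle while their nitrogen goes to urea. The methionine cycle makes and spends S-adenosylmethionine, and the breakdown of histidine, serine, glycine, dimethylglycine and sarcosine feeds one-carbon units to folate.

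Total counts ran from 10494080 to 13057467 per library. Levels are in CPM, counts relative to library totals that were scaled by the trimmed mean of M-values (TMM), changes are log2 fold changes ± SE, and n = 4 libraries per genotype throughout. The targeted genes were read first. Nfe2l2 stood at 8.69 to 17.7 CPM in Nrf2 TKO against 56.6 to 80.9 in WT. Sqstm1 stood at 249.2, 439.4, 363.2 and 773.8 CPM in p62 TKO against 508 to 691 in WT, so that the library labelled p62 TKO replicate 4 lay above every WT library. Counts over a whole gene do not resolve a deleted exon: Atg5 was at 38.6 to 46.7 CPM in Atg5 KO and 22.5 to 31.4 in WT, and Tsc1 at 29.1 to 33.8 in TSC1 KO and 33.1 to 36.7 in WT, so neither level checks its label. Atg5 was higher again in TSC1 KO, at 79.8 to 88.6 CPM. Among the Atg5 KO libraries, replicate 2 stood apart: it was the highest of its group for 36 of the 40 members. Its median over the members was 0.12 above the WT mean on the log2 scale, against -0.78 to -0.53 in the other 3. Counts of members called in the comparisons with these libraries are also given without them.

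Markers of other cell types also differed between genotypes. The 7 hepatocyte markers analysed, Alb among them, summed to 94510 to 105300 CPM in WT and 15000 to 20830 in DKO, while Nrf2 TKO had 70030 to 92910 and p62 TKO 39310 to 53560. TSC1 KO had 78250 to 93570, below every WT library, and Atg5 KO 52770 to 111700, with a median of 60180. The 8 cholangiocyte markers, genes of the bile duct cell such as Krt7 and Epcam, summed to 65.0 to 94.6 CPM in WT and 6767 to 10130 in DKO. Their sum was 1605 to 2875 in Nrf2 TKO, 2426 to 3653 in p62 TKO, 569.3 to 950.2 in TSC1 KO and 451.6 to 1116 in Atg5 KO. In DKO versus WT, all 7 hepatocyte markers were called lower (median log2 fold change -1.85) and all 8 cholangiocyte markers higher (median 6.52). Of the 8 markers listed for each other type, stellate cells and fibroblasts had 6 called higher and 1 lower, macrophages 5 and 2, and lymphocytes 6 and 0. Of 6 endothelial markers 2 were called higher and 2 lower, of 4 red cell markers tested 1 lower, and of 4 neutrophil markers tested none. Over all tested genes 37.1% were called higher in DKO versus WT and 32.3% lower, and the endothelial counts are near these shares. Pancreatic acinar cells were represented by 1 tested marker, called lower. Prss2, Ctrb1 and Pnlip had no count in any DKO library, but Prss2 and Ctrb1 had none in any WT library either. The part of these cell types in the results below was not tested.

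Promoters are shown for Pck1 and G6pc, the regulated ends of gluconeogenesis, for Kmo and Haao, which fell most in DKO, and for Gpt2, which did not fall. Each is the 300 bases from 250 before to 50 after the RefSeq start on GRCm38.p6, 5′ to 3′ along the gene's strand. Capitals mark matches to searched motifs: in Pck1 the core of the cyclic AMP response element, in G6pc an antioxidant response element and a TATA box.
Pck1 promoter: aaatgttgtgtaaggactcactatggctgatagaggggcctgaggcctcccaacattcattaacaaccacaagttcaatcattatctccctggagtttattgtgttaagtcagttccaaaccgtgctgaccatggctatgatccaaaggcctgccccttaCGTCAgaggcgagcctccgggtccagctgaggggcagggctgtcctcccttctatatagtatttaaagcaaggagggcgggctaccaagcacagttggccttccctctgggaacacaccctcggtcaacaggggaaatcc
G6pc promoter: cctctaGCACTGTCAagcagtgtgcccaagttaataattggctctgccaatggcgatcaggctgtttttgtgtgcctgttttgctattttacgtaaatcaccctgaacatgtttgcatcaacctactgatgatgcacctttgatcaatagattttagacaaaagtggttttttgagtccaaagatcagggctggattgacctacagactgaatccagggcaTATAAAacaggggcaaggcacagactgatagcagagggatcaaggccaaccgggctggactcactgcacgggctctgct
Kmo promoter: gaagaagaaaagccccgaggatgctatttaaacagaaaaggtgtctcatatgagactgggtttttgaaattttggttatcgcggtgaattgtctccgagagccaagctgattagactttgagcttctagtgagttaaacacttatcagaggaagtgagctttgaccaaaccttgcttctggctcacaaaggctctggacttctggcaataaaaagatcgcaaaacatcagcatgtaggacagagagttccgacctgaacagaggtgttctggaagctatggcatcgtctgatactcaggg
Haao promoter: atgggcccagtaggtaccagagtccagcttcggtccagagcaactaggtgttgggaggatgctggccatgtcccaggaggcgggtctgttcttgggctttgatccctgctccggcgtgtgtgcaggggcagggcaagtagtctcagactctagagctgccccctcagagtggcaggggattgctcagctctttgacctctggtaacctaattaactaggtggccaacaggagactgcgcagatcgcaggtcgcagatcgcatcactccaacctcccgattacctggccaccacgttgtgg
Gpt2 promoter: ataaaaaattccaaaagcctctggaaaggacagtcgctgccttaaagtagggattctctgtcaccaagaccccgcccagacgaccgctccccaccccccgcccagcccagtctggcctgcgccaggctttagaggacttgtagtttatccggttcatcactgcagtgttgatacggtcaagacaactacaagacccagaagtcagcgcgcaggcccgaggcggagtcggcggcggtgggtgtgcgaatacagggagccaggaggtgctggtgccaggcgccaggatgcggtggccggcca
The windows lie at chr2:173152823-173153122 (plus strand, Pck1), chr11:101367466-101367765 (plus, G6pc), chr1:175631943-175632242 (plus, Kmo), chr17:83846741-83847040 (minus, Haao) and chr8:85492326-85492625 (plus, Gpt2). In the GENCODE annotation of GRCm38, Kmo spans 175620381 to 175662116 on chromosome 1 and Haao 83831156 to 83847963 on chromosome 17, so both windows lie inside the annotated gene and mark an inner start.

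RefSeq windows were found for 36 members, and 7 motifs were searched on both strands. The core of the cyclic AMP response element, TGACG, lay in 4 of the 36 (11.1%) against 23% (6228) of all 27025 genes with a window, and in Pck1 it began 90 bases before the start on the opposite strand. The full element TGACGTCA was in no member and in 2.03% of genes. The antioxidant response element, TGACNNNGC, through which Nrf2 binds, was in 6 members (Amt, Bckdhb, Fbp1, G6pc, Prodh and Tdo2, 16.7%) and in 14% (3781) of genes. TATAAA was in 16.7% of members and 15.7% of genes, the C/EBP motif TTGCNNAA in 8.33% and 12.2%, and the forkhead motif TGTTTAC in 2.78% and 4.05%. The HNF4A motif CAAAGTCCA was in no member and in 0.555% of genes. The core element is contained in the full one and can overlap the antioxidant element. A match describes these letters and shows no binding.

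Compared per kilobase of exon (TPM), the highest members in WT were Gnmt at 2950 ± 699, Tat at 1930 ± 699, Hpd at 1868 ± 206, Pck1 at 1848 ± 440 and Mat1a at 1737 ± 447 TPM. The spreads of the 4 after Gnmt overlap, as do those of Gnmt and Tat. Mccc1 was the lowest, at 9.61 ± 1.84 TPM. In DKO the order was led by Pck1 at 755 ± 332 and Mat1a at 736 ± 222, and Kmo and Haao moved from the middle of the order to 22.1 ± 6.84 and 29.4 ± 8.83 TPM, near its end. Together the 40 members took 2.61 ± 0.36% of all counts in WT and 0.943 ± 0.178% in DKO (SD). Their share was 2.86 ± 0.30% in Nrf2 TKO, 1.90 ± 0.37% in p62 TKO, 2.94 ± 0.19% in TSC1 KO and 2.22 ± 0.53% in Atg5 KO. Every DKO library, at 0.695 to 1.08%, took a smaller share than every library of the other genotypes.

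**Figure D1:**
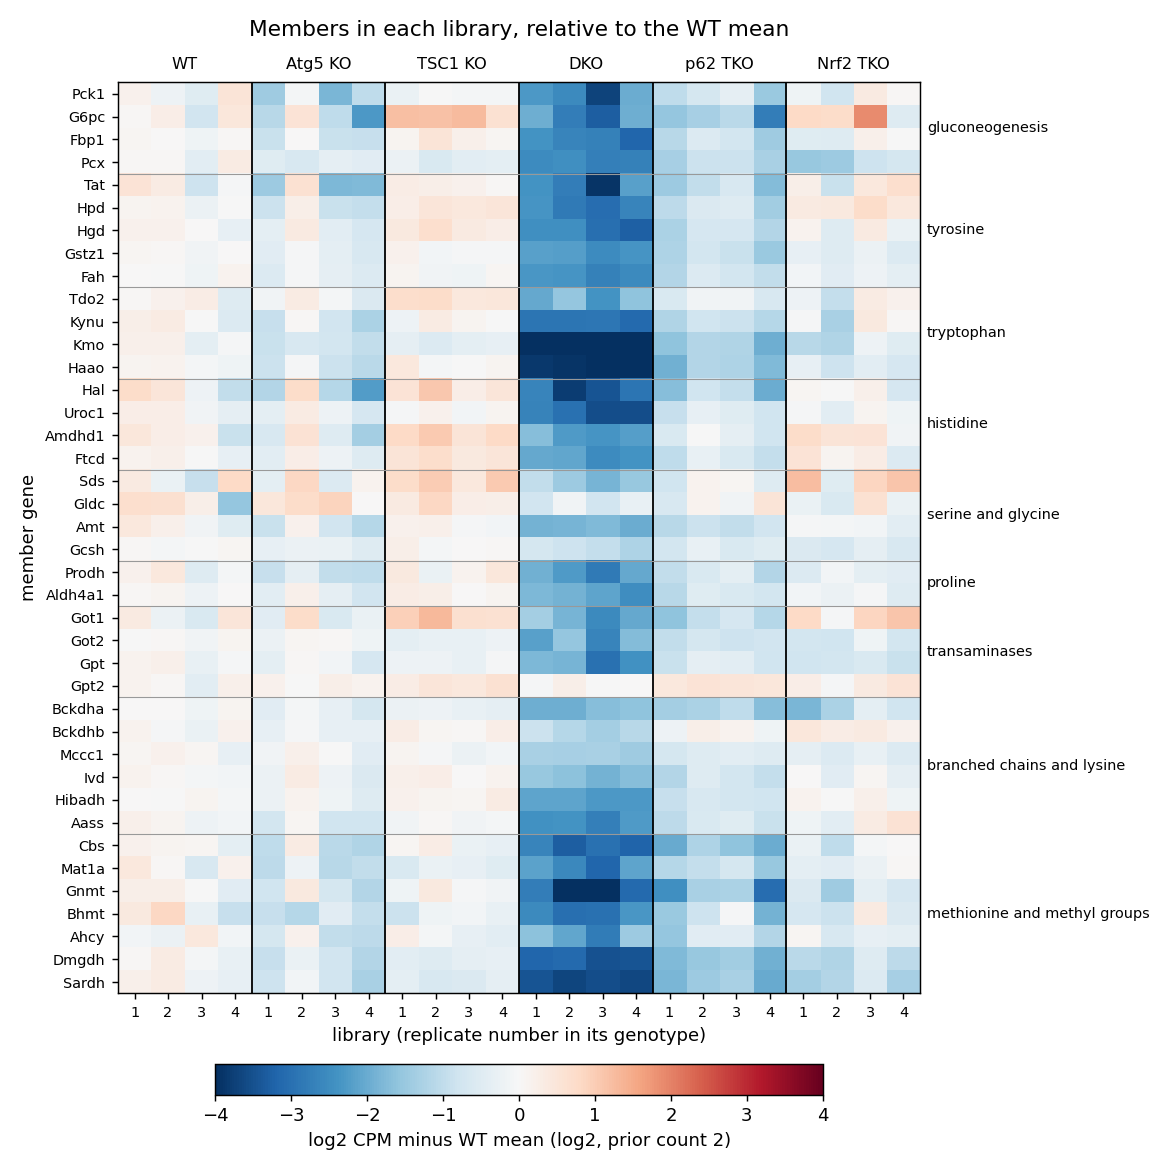
Each cell is the log2 CPM of a member (rows, by pathway) in a library (columns, by genotype and replicate) minus the mean of the 4 WT libraries, with blue for lower and red for higher. The median over the members lies between -2.75 and -2.16 in the DKO libraries and at 0.12 in Atg5 KO replicate 2, whereas the other 3 Atg5 KO libraries lie between -0.78 and -0.53.

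Loss of both Atg5 and Tsc1 went with a fall of nearly all the members, in every pathway. In DKO versus WT, 38 of 40 were called lower (median log2 fold change -2.38, against 0.08 over all genes), where 32.3% of all tested genes were called lower. No member was called higher by edgeR's quasi-likelihood test, where 37.1% of genes were, and none at an unadjusted p under 0.05 or by DESeq2. For 38 members every DKO library lay below every WT library, against 28.3% of all genes. For 32 members the DKO libraries lay below all 20 other libraries, against 12.9%; the exceptions were Ahcy, Bckdha, G6pc, Gcsh, Gldc, Gnmt, Got1 and Gpt2. Beside this stand the fall of hepatocyte markers and rise of cholangiocyte markers above, and in bulk liver fewer cells of a type cannot be told apart from less RNA per cell. Scaling moved these values: on total counts alone the median of all genes moved to 1.07 and that of the members to -1.38, with 35 members called lower and 1 higher. The members lay 2.46 below the median of all genes under both scalings. That scaling called 11158 genes higher and 1767 lower, against 5873 and 5115 with TMM.

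All 4 gluconeogenic enzymes fell in DKO, by a similar factor. Pck1, which makes phosphoenolpyruvate from oxaloacetate in the cytosol, ran from 2470 to 4915 CPM in WT and 264 to 880 in DKO (log2 fold change -2.55 ± 0.37, adjusted p = 2.2e-06). G6pc, the catalytic subunit of glucose-6-phosphatase that releases free glucose, changed by -2.46 ± 0.54 (adjusted p = 3.7e-04). Fbp1, fructose bisphosphatase, stood at 1094, 1044, 919 and 1077 CPM in WT and at 195, 164, 157 and 116 in DKO, 6.55-fold lower (log2 -2.71 ± 0.24, adjusted p = 1.1e-09). Its groups were far apart, with little spread within either. Pcx, pyruvate carboxylase, the entry step in the mitochondrion, stood at 613, 606, 443 and 740 in WT and 103, 109, 88.0 and 90.7 in DKO (log2 -2.62 ± 0.19, adjusted p = 4.2e-11). Its 4 DKO values were tighter than its WT values.

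The kynurenine route of tryptophan held the largest falls of any member. Kmo, kynurenine monooxygenase, stood at 606, 610, 405 and 515 CPM in WT and 31.5, 33.5, 16.4 and 17.8 in DKO, 21.5-fold lower (log2 -4.43 ± 0.27, adjusted p = 5.1e-12). Haao, the hydroxyanthranilate dioxygenase later on this route, stood at 665, 685, 593 and 550 in WT and 43.1, 41.2, 26.7 and 19.5 in DKO, 19.1-fold lower (log2 -4.26 ± 0.27, adjusted p = 8.9e-12). For both genes the DKO and WT libraries were far apart. Kynu, kynureninase, changed by -3.00 ± 0.30 on the log2 scale. Tdo2, tryptophan dioxygenase, the entry step of the route, fell least, with a log2 fold change of -1.90 ± 0.26 (adjusted p = 8.2e-07).

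The 5 tyrosine enzymes fell by like amounts, with log2 fold changes from -2.77 to -2.31. Hgd, homogentisate dioxygenase, stood at 859, 856, 770 and 612 CPM in WT and 140, 140, 94.5 and 78.8 in DKO (log2 -2.77 ± 0.25, adjusted p = 1.6e-09). Fah, fumarylacetoacetase at the end of the route, stood at 797, 782, 698 and 865 in WT and 155, 151, 119 and 135 in DKO (log2 -2.49 ± 0.16, adjusted p = 8.7e-12). Neither gene overlapped between the groups. Tat, the aminotransferase that starts the route, changed by -2.76 ± 0.50, Hpd, the hydroxyphenylpyruvate dioxygenase, by -2.70 ± 0.25, and Gstz1, the maleylacetoacetate isomerase, by -2.31 ± 0.16.

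In the histidine route the first step, Hal, histidine ammonia-lyase, stood at 766, 642, 402 and 234 CPM in WT and 74.0, 33.4, 42.3 and 60.9 in DKO (log2 -3.28 ± 0.52, adjusted p = 9.4e-06). WT itself spread widely for Hal, and the groups still did not overlap. Uroc1, urocanate hydratase, the next step, stood at 638, 632, 478 and 408 in WT and 82.2, 67.1, 44.8 and 45.5 in DKO (log2 -3.17 ± 0.23, adjusted p = 5.8e-11). Amdhd1, imidazolonepropionase, changed by -2.19 ± 0.33 and Ftcd, which hands the formimino group to folate, by -2.26 ± 0.22.

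Methionine and methyl group enzymes fell in all 7 cases, with log2 fold changes from -3.60 to -1.93. Sardh, sarcosine dehydrogenase, stood at 1094, 1198, 837 and 758 CPM in WT and 87.7, 74.5, 80.9 and 77.0 in DKO, 12.1-fold lower (log2 -3.60 ± 0.24, adjusted p = 1.9e-11). Dmgdh, dimethylglycine dehydrogenase, which makes sarcosine, stood at 551, 670, 503 and 433 in WT and 59.24, 61.96, 47.88 and 48.33 in DKO (log2 -3.31 ± 0.20, adjusted p = 4.3e-12). Both were near one level in the 4 DKO libraries. Gnmt, glycine N-methyltransferase, the main consumer of surplus S-adenosylmethionine, changed by -3.48 ± 0.43, and Cbs, cystathionine beta-synthase, stood at 906, 876, 858 and 621 in WT and 130, 82.5, 102 and 86.7 in DKO (log2 -3.03 ± 0.31, adjusted p = 1.1e-08). Mat1a, the adenosyltransferase of the adult liver, stood at 4389, 3359, 2111 and 3641 in WT and 732, 550, 363 and 755 in DKO (log2 -2.49 ± 0.26, adjusted p = 1.9e-08). Bhmt, which remethylates homocysteine with betaine, changed by -2.84 ± 0.39. The smallest fall was that of Ahcy, adenosylhomocysteinase, at -1.93 ± 0.31.

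Branched-chain and lysine genes had a median change of -1.75 and the pair of proline genes one of -2.15, against -3.03 for the methyl group enzymes. Hibadh, hydroxyisobutyrate dehydrogenase of valine breakdown, stood at 408, 398, 431 and 379 CPM in WT and 92.5, 92.7, 82.3 and 82.7 in DKO (log2 -2.21 ± 0.13), and had the smallest adjusted p of any member, 3.3e-12. Aass, aminoadipate semialdehyde synthase of lysine breakdown, stood at 488, 463, 365 and 394 in WT and 79.5, 81.4, 63.0 and 89.0 in DKO (log2 -2.45 ± 0.22, adjusted p = 1.2e-09). Each had DKO values far from WT. The subunits Bckdha and Bckdhb of the branched-chain ketoacid dehydrogenase changed by -1.81 ± 0.21 and -1.12 ± 0.13, Ivd, isovaleryl-CoA dehydrogenase, by -1.69 ± 0.17, and Mccc1, a subunit of methylcrotonyl-CoA carboxylase, by -1.36 ± 0.12. Prodh, proline dehydrogenase, stood at 298, 354, 187 and 254 in WT and 70.4, 55.6, 37.0 and 64.9 in DKO (log2 -2.26 ± 0.23, adjusted p = 1.1e-08). Aldh4a1, which completes proline breakdown to glutamate, changed by -2.04 ± 0.18.

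The transaminases did not move as a block. Gpt, the cytosolic alanine aminotransferase, stood at 419, 442, 314 and 369 CPM in WT and 109, 106, 48.4 and 71.3 in DKO (log2 -2.20 ± 0.21, adjusted p = 3.0e-09). Its mitochondrial counterpart Gpt2 stood at 477, 451, 324 and 503 in WT and 418, 505, 426 and 436 in DKO (log2 0.02 ± 0.14, adjusted p = 0.89). The groups did not overlap for Gpt and did for Gpt2, whose sign turned to -0.04, -0.04 and -0.17 without DKO replicate 2, WT replicate 2 or WT replicate 3. Gpt2 stood at 1.03 and was called higher on total counts alone. The aspartate aminotransferases Got1 (cytosolic) and Got2 (mitochondrial) changed by -1.96 ± 0.33 and -1.97 ± 0.18.

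Serine and glycine breakdown had the smallest median change, -1.24. Amt, the aminomethyltransferase (T protein) of the glycine cleavage system, stood at 96.3, 83.8, 65.3 and 52.1 CPM in WT and 19.4, 19.7, 21.3 and 18.1 in DKO (log2 -1.92 ± 0.21, adjusted p = 4.5e-08). All 4 DKO libraries sat near one level, below WT. Sds, serine dehydratase, changed by -1.55 ± 0.38. Gcsh, the H protein, changed by -0.92 ± 0.12 with TMM and by 0.07 on total counts alone. Gldc, the P protein, was not called at -0.69 ± 0.35 (adjusted p = 0.086), with groups that overlapped, and stood at 0.28 on total counts alone.

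**Figure D2:**
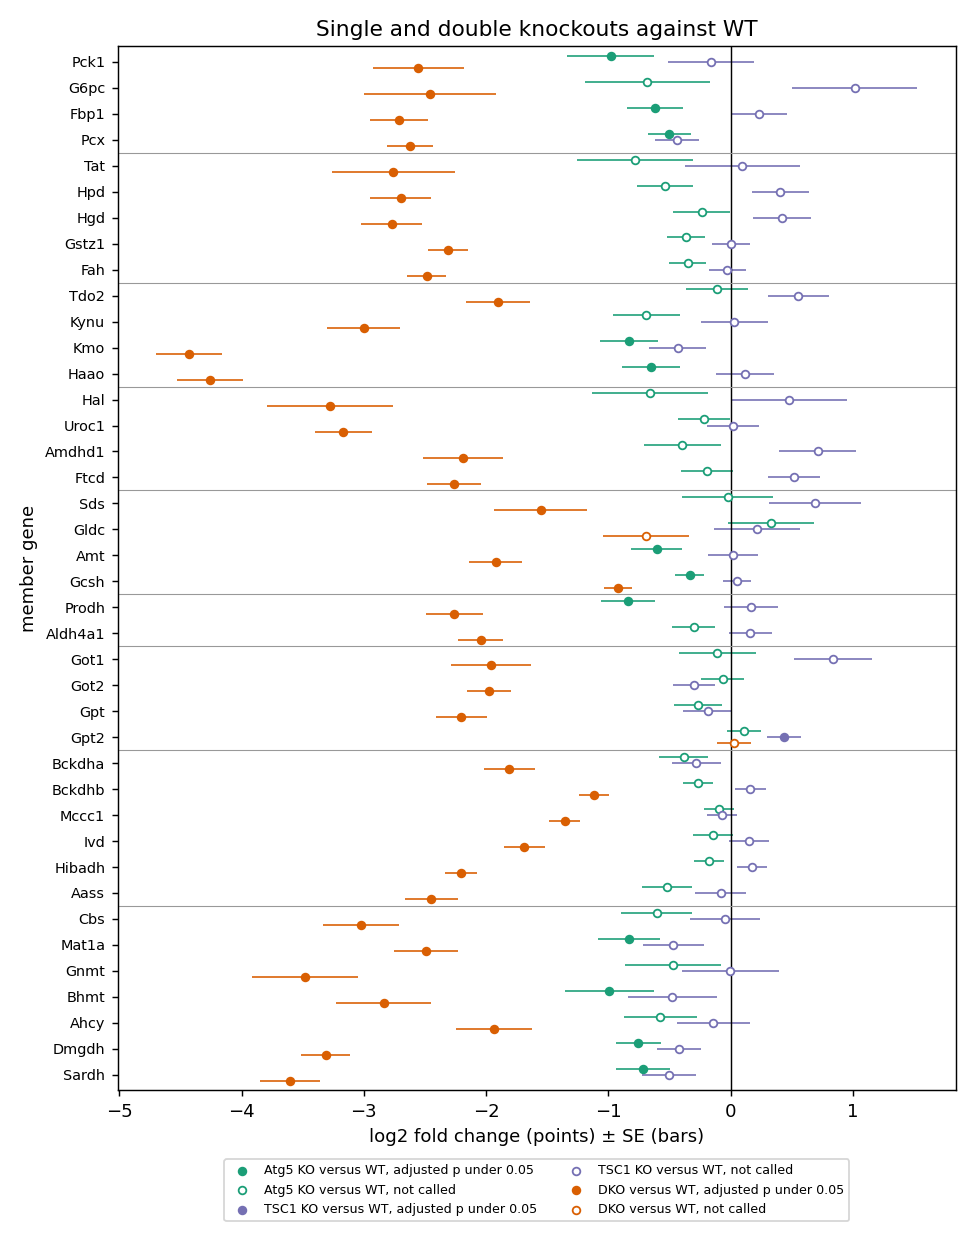
Points are the log2 fold change of each member (rows, by pathway) against WT in Atg5 KO, TSC1 KO and DKO, bars are ± SE, and filled points have an adjusted p under 0.05. The DKO points lie to the left of the others for every member, from -4.43 (Kmo) to 0.02 (Gpt2).

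Loss of Atg5 alone went with smaller falls, spread over fewer enzymes. In Atg5 KO versus WT, 12 of 40 members were called lower (median -0.43, against 0.00 over all genes), where 11.3% of genes were. None was called higher, where 18.6% of genes were, and none at an unadjusted p under 0.05 or by DESeq2. Of the 12, 4 act on methionine or methyl groups. Dmgdh stood at 282, 446, 313 and 237 CPM against 551, 670, 503 and 433 in WT (log2 -0.76 ± 0.18, adjusted p = 0.0034), and Mat1a at 1585, 2852, 1526 and 1634 against the WT values given above (log2 -0.83 ± 0.25, adjusted p = 0.016). Replicate 2 was the highest of its group for both and lay within the WT range. Kmo stood at 286, 335, 316 and 265 CPM, below every WT library (log2 -0.83 ± 0.24, adjusted p = 0.01). Prodh stood at 141, 206, 133 and 131 CPM (log2 -0.84 ± 0.22, adjusted p = 0.0065), again with replicate 2 inside the WT range.

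The others called lower in Atg5 KO were Sardh (-0.71), Bhmt (-0.99), Pck1 (-0.98), Fbp1 (-0.62), Pcx (-0.50), Haao (-0.65), Amt (-0.61) and Gcsh (-0.34; 0.03 on total counts alone). G6pc, at 248, 786, 266 and 109 CPM, and Tat, at 894, 3719, 700 and 719, were not called (log2 -0.68 ± 0.51 and -0.78 ± 0.47). Without replicate 2 these differences were -1.45 and -1.76 and passed, and 23 members in all were called lower. The count was 3 without Atg5 KO replicate 1, Atg5 KO replicate 4 or WT replicate 1, 7 without Atg5 KO replicate 3 and 6 without WT replicate 2. Scaled by total counts, 1 member was called lower and 1 higher, with medians of -0.10 for the members and 0.37 for all genes, of which 5719 were called higher and 349 lower against 2944 and 1794 with TMM. All 8 cholangiocyte markers were called higher here (median 3.37), as were 7 of 8 stellate and fibroblast (1.70), 7 of 8 lymphocyte (1.60) and 6 of 8 macrophage markers (1.27), and 2 of 7 hepatocyte markers were called lower (-0.51).

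Loss of Tsc1 alone went with few called changes. In TSC1 KO versus WT, 1 of 40 members was called higher, where 8.79% of genes were, and none lower, where 7.6% were (median 0.04, against 0.01 over all genes). At an unadjusted p under 0.05, edgeR's test gave 5 higher and 3 lower, and DESeq2 called 2 higher and 0 lower. The gene called was Gpt2, at 532, 612, 578 and 657 CPM against 477, 451, 324 and 503 in WT (log2 0.44 ± 0.14, adjusted p = 0.035). Every TSC1 KO library was above every WT library. That call was lost without TSC1 KO replicate 2, 3 or 4 or WT replicate 2 or 3, and 2 members were called without WT replicate 4. With only these groups in the fit, 6 members were called higher and 3 lower, and with the replicate number as a block 3 were called higher.

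Some members of TSC1 KO stood apart from WT without a call. All 4 libraries lay above WT for 9 members, the called Gpt2 among them, where 12.7% of genes did so. They lay below WT for 4, which is near the share of all genes, 10.7%. G6pc stood at 1244, 1206, 1293 and 827 CPM against 552, 653, 320 and 737 in WT (log2 1.01 ± 0.51, adjusted p = 0.19). Got1 stood at 508, 638, 404 and 399 against 335, 222, 169 and 363 (log2 0.84 ± 0.32, adjusted p = 0.074). Both were higher in every TSC1 KO library than in any WT library, whereas Sardh was lower, at 733, 612, 641 and 751 CPM (log2 -0.51 ± 0.22, adjusted p = 0.12). Beside these values, 8 of 8 cholangiocyte markers were called higher (median 3.44), 6 of 8 macrophage markers lower (median -1.43) and 1 of 7 hepatocyte markers each way (median 0.05). With no TMM factor, that is on total counts alone, 4 members were called higher and 1851 genes higher against 628 lower, compared with 1393 and 1205 with TMM.

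The fall in DKO was larger than the single losses add up to. The interaction compares the DKO change with the sum of the Atg5 KO and TSC1 KO changes on the log2 scale. It was called below 0 for 39 of 40 members (median -2.09, against 0.03 over all genes), where 19.3% of genes were called lower and 15.5% higher. No member was called above 0, none at an unadjusted p under 0.05 or by DESeq2, and Gldc alone was not called (log2 -1.24 ± 0.50, adjusted p = 0.059). Among the members with the smallest adjusted p, Haao stood at 345, 602, 344 and 296 CPM in Atg5 KO and 830, 586, 618 and 672 in TSC1 KO, and its interaction was -3.72 ± 0.35 (adjusted p = 7.9e-08). All of these libraries lay above those of DKO. For Hibadh it was -2.20 ± 0.18 (adjusted p = 2.1e-08), for Uroc1 -2.97 ± 0.31 (adjusted p = 2.6e-07) and for Fah -2.11 ± 0.21 (adjusted p = 1.9e-07). The smallest called value was that of Gpt2, -0.53 ± 0.20 (adjusted p = 0.042). On total counts alone 33 members were called below 0 and none above, with medians of -1.55 for members and 0.52 for all genes, where 5620 genes were called higher and 1684 lower against 2451 and 3066 with TMM. For the interaction, 5 of 7 hepatocyte markers were called lower and 1 of 8 cholangiocyte markers higher (medians -1.78 and -0.14). All 4 neutrophil markers tested (median 2.79) and 4 of 8 macrophage markers (0.998) were called above 0. Against WT the neutrophil medians were -0.77 in Atg5 KO, -1.65 in TSC1 KO and 0.61 in DKO, and no neutrophil marker was called in DKO. These markers were low: the 6 listed summed to 6.09 to 14.5 CPM in WT and 1.64 to 4.14 in TSC1 KO. Without Atg5 KO replicate 2, 36 members were called below 0, with a median of -1.90.

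With p62 deleted on top of Atg5 and Tsc1, most members stood higher than in DKO. In p62 TKO versus DKO, 37 of 40 were called higher (median 1.52, against -0.02 over all genes), where 22.3% of genes were. None was called lower, where 21.5% were, and none at an unadjusted p under 0.05 or by DESeq2. For 33 members every p62 TKO library lay above every DKO library, against 21.9% of genes. Both this comparison and DKO versus WT use the same 4 DKO libraries, so their values are not independent. Kmo stood at 172, 231, 228 and 136 CPM in p62 TKO against 31.5, 33.5, 16.4 and 17.8 in DKO, 7.74-fold higher (log2 2.95 ± 0.25, adjusted p = 1.5e-08). Hibadh stood at 212, 258, 241 and 230 (log2 1.43 ± 0.13, adjusted p = 2.3e-08), with all 4 libraries above DKO and below WT.

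After Kmo, the largest rises between DKO and p62 TKO were those of Haao and Uroc1. Uroc1 stood at 277, 419, 378 and 306 CPM (log2 2.53 ± 0.23, adjusted p = 2.6e-08) and Haao at 163, 274, 262 and 181 (log2 2.75 ± 0.25, adjusted p = 3.5e-08). Neither overlapped DKO. The exceptions to the rise were G6pc, at 185, 215, 255 and 80.1 CPM against 140, 78.8, 54.9 and 138 in DKO (log2 0.84 ± 0.51, adjusted p = 0.2), Gldc (0.50 ± 0.35, adjusted p = 0.26) and Bckdha (0.49 ± 0.20, adjusted p = 0.058). For all 3 the groups overlapped, for G6pc and Bckdha through p62 TKO replicate 4 alone. Without p62 TKO replicate 4, the library with high Sqstm1, the count of members called higher was again 37, with Got1 lost and Bckdha gained (0.60). Scaled by total counts, 32 members were called higher and none lower (medians 1.04 for members and -0.48 for all genes, with 1624 genes called higher and 7544 lower against 3533 and 3413 with TMM), and Gcsh (-0.06) and Gpt2 (-0.03) changed sign. All 7 hepatocyte markers were called higher and all 8 cholangiocyte markers lower (medians 1.23 and -1.51), and 2 of 8 macrophage markers were called higher (0.32).

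With Nrf2 deleted instead, nearly all the members again stood higher than in DKO. In Nrf2 TKO versus DKO, 38 of 40 were called higher (median 2.29, against -0.05 over all genes), where 26.7% of genes were. None was called lower, where 29.2% were, and none at an unadjusted p under 0.05 or by DESeq2. Every Nrf2 TKO library lay above every DKO library for 37 members, against 21.1% of genes. Kmo stood at 246, 227, 459 and 380 CPM (log2 3.73 ± 0.26, adjusted p = 2.1e-10), Haao at 490, 351, 465 and 388 (log2 3.70 ± 0.26, adjusted p = 2.4e-10) and Hibadh at 445, 401, 459 and 362 (log2 2.25 ± 0.13, adjusted p = 2.7e-11). The Hibadh values cover the WT range, those of Haao lie between DKO and WT, and 1 Kmo library falls within the WT range. Fah stood at 725, 571, 674 and 595 CPM (log2 2.19 ± 0.16, adjusted p = 2.4e-10), and 1 of its libraries fell within the WT range. G6pc, which was not called in p62 TKO versus DKO, was called here at 3.36 ± 0.56 (adjusted p = 3.2e-05).

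Gldc and Gpt2 were the members not called in Nrf2 TKO versus DKO (log2 0.41 ± 0.35 and 0.26 ± 0.14). Both changed sign on total counts alone (-0.29 and -0.43), as did Gcsh (-0.31), and 35 members were called higher and 2 lower, with medians of 1.61 for members and -0.71 for all genes. Over all genes that scaling gave 1826 called higher and 9483 lower against 4228 and 4633 with TMM. All 7 hepatocyte markers were called higher and all 8 cholangiocyte markers lower in this comparison (medians 1.87 and -1.88). Of 8 macrophage markers 6 were called lower and 2 higher (-1.17), and of 8 stellate and fibroblast markers 4 lower and 2 higher (-0.55).

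**Figure D3:**
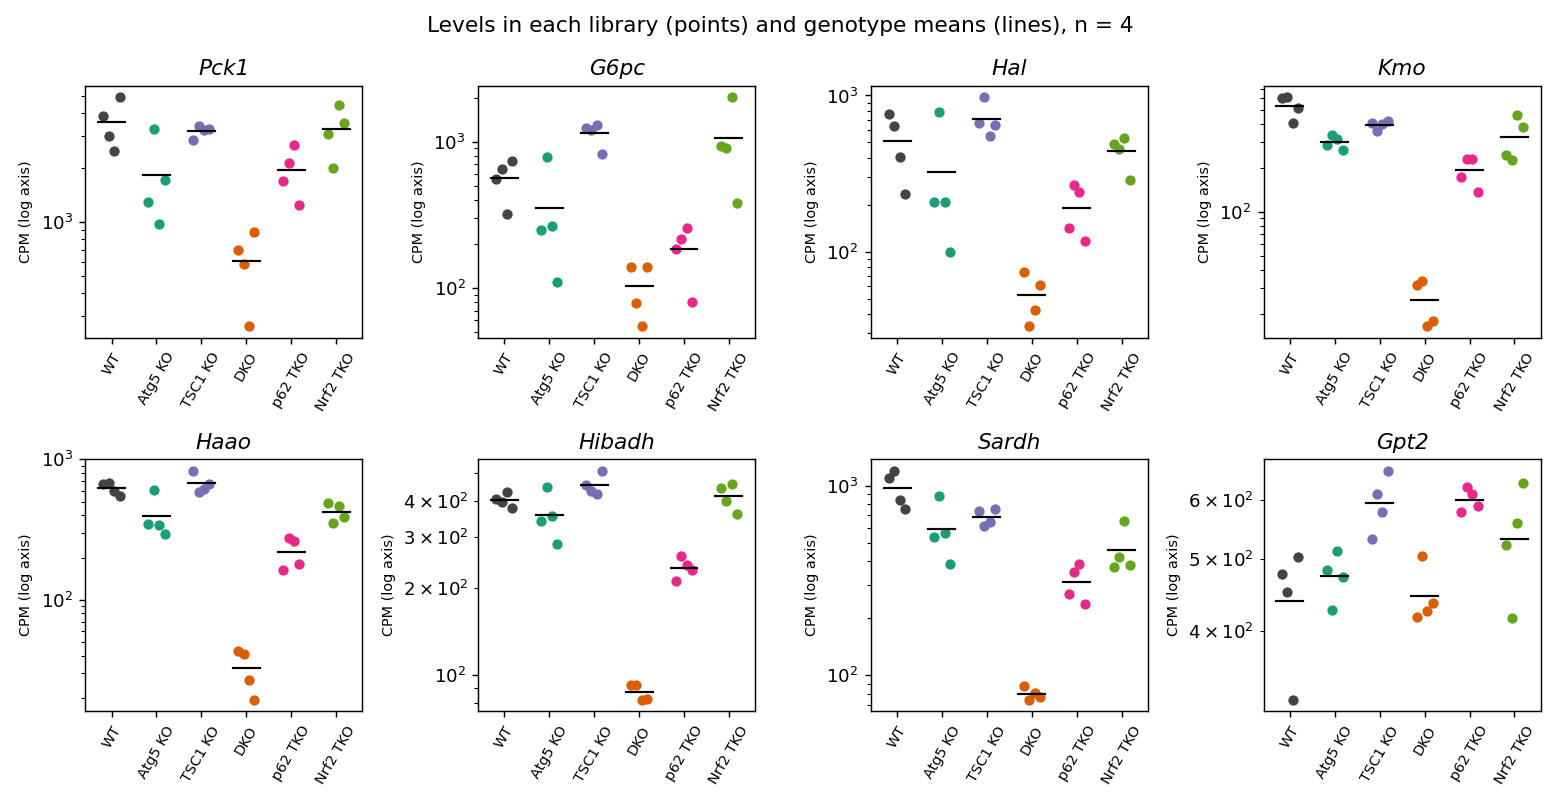
Points are the CPM of 8 members in each of the 24 libraries on log axes, and lines are genotype means. DKO is lowest for Pck1, G6pc, Hal, Kmo, Haao, Hibadh and Sardh, with p62 TKO next for all of these except Pck1, while Gpt2 keeps to 324 to 657 CPM in every library.

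Measured against WT, the p62 TKO livers kept a smaller but wide deficit. In p62 TKO versus WT, 34 of 40 members were called lower (median -0.87, against 0.02 over all genes), where 22.9% of genes were, and 27 lay below WT in every library, against 21.3%. A single member was called higher, where 28.0% of genes were. By mean, p62 TKO was the second lowest genotype for 32 members and DKO the lowest for 39. The 4 largest estimated deficits were all in methyl group enzymes. Dmgdh stood at 156, 185, 201 and 141 CPM against 551, 670, 503 and 433 in WT (log2 -1.66 ± 0.19, adjusted p = 2.8e-07), and Sardh at 269, 349, 388 and 238 against 1094, 1198, 837 and 758 (log2 -1.64 ± 0.23, adjusted p = 3.4e-06). For both, the highest p62 TKO library was below the lowest WT library. Gstz1 stood at 375, 533, 473 and 314 CPM (log2 -1.06 ± 0.16, adjusted p = 8.7e-06), and Bckdha at 18.7, 19.9, 23.5 and 14.5 (log2 -1.32 ± 0.20, adjusted p = 1.5e-05), again with no overlap with WT.

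Gpt2 was the member called higher in p62 TKO, at 579, 626, 611 and 589 CPM (log2 0.45 ± 0.14, adjusted p = 0.0096), above every WT library, and the call was lost without WT replicate 3. Bckdhb stood at 90.0, 121, 114 and 91.3 CPM, overlapping WT and not called (log2 -0.0042 ± 0.12, adjusted p = 0.98), while its partner subunit Bckdha was low. Gldc (-0.19 ± 0.35), Tdo2 (-0.39 ± 0.25), Amdhd1 (-0.49 ± 0.31) and Sds (-0.36 ± 0.37) were not called. Scaled by total counts, all 5 of these stood above 0, 13 members were called lower and 2 higher, and the medians were -0.36 for members and 0.55 for all genes, with 8572 genes called higher and 988 lower against 4431 and 3637 with TMM. Gcsh, called at -0.52, stood at 0.0081 there. The number of members called lower was 29 without p62 TKO replicate 4, and Pck1, Tat, Hal, Bhmt and Ahcy were the 5 lost. Over all libraries left out in turn it ran from 28 to 34. Replicate 4 did not stand alone. Relative to the WT mean, the log2 median over the members was -1.12 in replicate 1 and -1.16 in replicate 4. It was -0.66 in replicate 2 and -0.68 in replicate 3. All 8 cholangiocyte markers were called higher and 4 of 7 hepatocyte markers lower (medians 4.67 and -0.77). Called higher were also 6 of 8 lymphocyte (2.16), 6 of 8 macrophage (1.33), 3 of 4 neutrophil (1.38) and 4 of 8 stellate and fibroblast markers (1.34, with 1 lower).

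In Nrf2 TKO versus WT, 10 of 40 members were called lower (median -0.22, against 0.07 over all genes), where 17.1% of genes were, and 1 higher, where 22.4% were. The median was -0.10 without WT replicate 1 and -0.32 without Nrf2 TKO replicate 3. Pcx stood at 207, 217, 330 and 360 CPM against 613, 606, 443 and 740 in WT (log2 -1.11 ± 0.18, adjusted p = 5.4e-05). Dmgdh stood at 252, 229, 371 and 257 (log2 -0.96 ± 0.18, adjusted p = 3.2e-04) and Sardh at 372, 420, 650 and 384 (log2 -1.09 ± 0.22, adjusted p = 5.6e-04). All Nrf2 TKO libraries were below all WT libraries for these 3. Bckdha was lower as well, at 13.3, 19.7, 36.5 and 27.6 CPM (log2 -0.98 ± 0.20, adjusted p = 6.5e-04), as were Gpt (-0.76), Kmo (-0.70), Got2 (-0.59), Gcsh (-0.56), Mccc1 (-0.45) and Gstz1 (-0.40).

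The member called higher in Nrf2 TKO was Bckdhb, at 141, 128, 133 and 118 CPM against 114, 101, 86.5 and 117 in WT (log2 0.32 ± 0.12, adjusted p = 0.047). No library overlapped, but Bckdhb was not called without Nrf2 TKO replicate 1, 2 or 3 or WT replicate 2 or 3. Its call was also lost with DESeq2's size factors, with no filter on low counts, with only the groups compared and with a replicate block, each of which left 0 members called higher. The count of members called higher was 3 without Nrf2 TKO replicate 2 and 2 without WT replicate 4. G6pc ranged widely, at 939, 903, 2013 and 378 CPM, and was not called (log2 0.90 ± 0.51, adjusted p = 0.17), nor was Got1, at 449, 253, 467 and 565 (log2 0.67 ± 0.32, adjusted p = 0.097). All 8 cholangiocyte markers were called higher than in WT and 1 of 7 hepatocyte markers lower (medians 4.43 and -0.21), and 6 of 8 stellate and fibroblast (1.18) and 4 of 8 lymphocyte markers (1.23) were also higher. By total counts, 8 members were called higher and 5 lower (medians 0.11 for members and 0.39 for all genes, of which 6166 were called higher and 1004 lower against 3547 and 2715 with TMM).

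**Figure D4:**
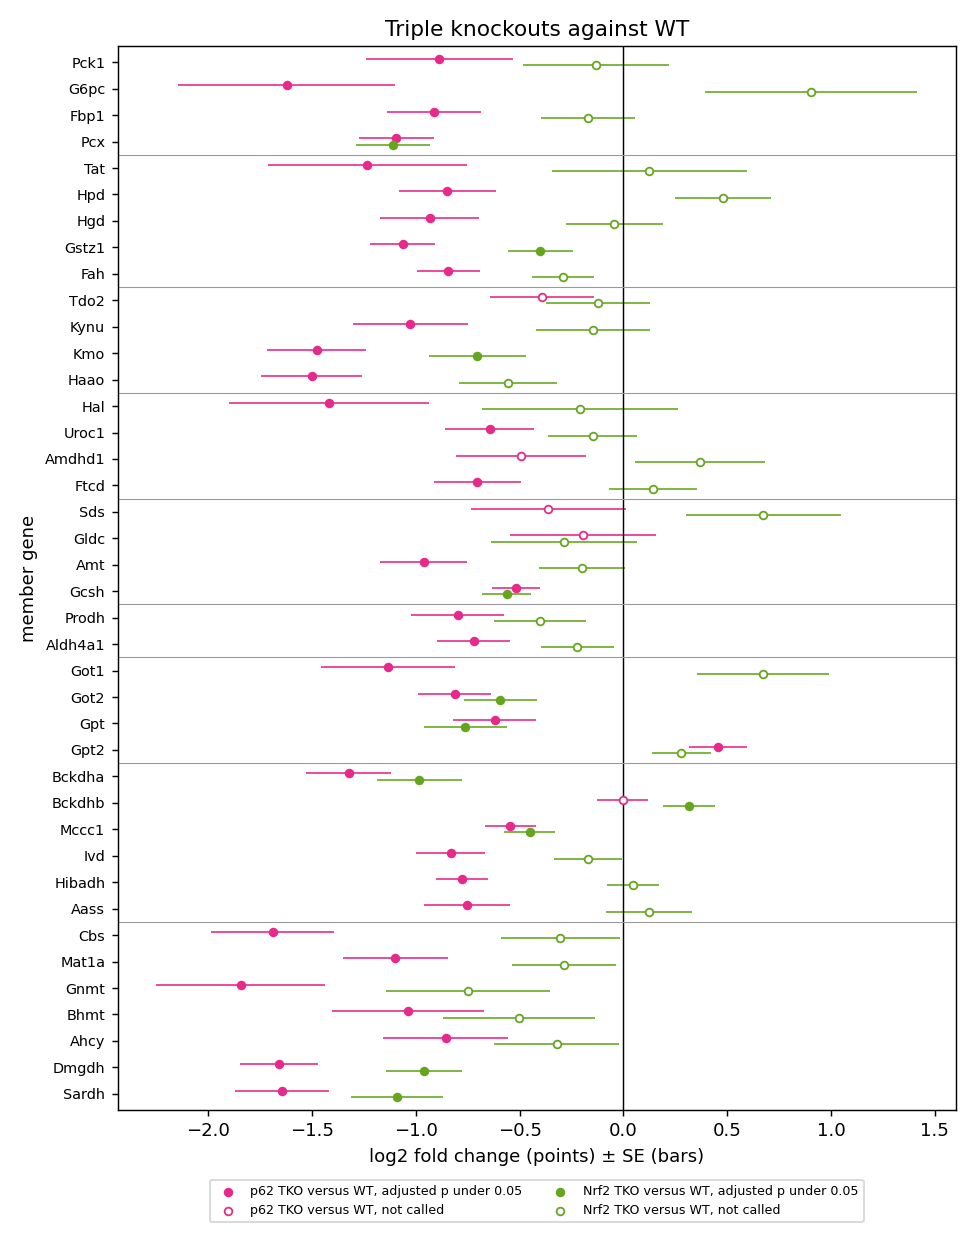
Points are the log2 fold change of each member (rows, by pathway) against WT in p62 TKO and Nrf2 TKO, bars are ± SE, and filled points have an adjusted p under 0.05. Of the 40 members, 34 were called lower in p62 TKO and 10 in Nrf2 TKO.

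The triple knockouts were also compared directly. In p62 TKO versus Nrf2 TKO, 18 of 40 members were called lower (median -0.72, against -0.01 over all genes), where 7.11% of genes were. No member was called higher, where 10.4% of genes were, and none at an unadjusted p under 0.05 or by DESeq2. Hibadh stood at 212, 258, 241 and 230 CPM in p62 TKO against 445, 401, 459 and 362 in Nrf2 TKO (log2 -0.82 ± 0.12, adjusted p = 1.1e-04). Hpd stood at 1069, 1483, 1526 and 840 against 2833, 2916, 3643 and 2953 (log2 -1.33 ± 0.24, adjusted p = 5.0e-04). Neither gene overlapped. Got1 stood at 84.2, 133, 162 and 117 against 449, 253, 467 and 565 (log2 -1.81 ± 0.33, adjusted p = 6.6e-04) and Cbs at 200, 342, 265 and 204 against 668, 397, 767 and 808 (log2 -1.38 ± 0.29, adjusted p = 0.0022). The largest difference was that of G6pc, at -2.53 ± 0.54 (adjusted p = 0.0028). Without p62 TKO replicate 4 the count was 14. By total counts, 17 members were called lower and 1 higher, and 2987 genes were called higher and 549 lower against 1649 and 1127 with TMM. Of the 7 hepatocyte markers 3 were called lower (median -0.55), 1 of 8 cholangiocyte markers higher (median 0.53) and 6 of 8 macrophage markers higher (median 1.47).

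Other genes of the same pathways were counted from lists chosen by name, with earlier results of these data known. Of 43 further genes of amino acid and one-carbon breakdown tested, 40 were called lower and 1 higher in DKO versus WT (median -2.11), where 32.3% of all tested genes were lower and 37.1% higher. In p62 TKO versus DKO 37 of the 43 were called higher and 1 lower (22.3% and 21.5% of all genes), and in Nrf2 TKO versus DKO 38 higher and 2 lower (26.7% and 29.2%). Agxt2, a mitochondrial aminotransferase, was at 197 ± 13.1 CPM in WT and 26.2 ± 7.61 in DKO (SD; log2 -2.91 ± 0.19, adjusted p = 9.4e-12). Shmt1, the cytosolic serine hydroxymethyltransferase, was at 215 ± 33.1 and 30.7 ± 4.65 (log2 -2.81 ± 0.18), and Mut, methylmalonyl-CoA mutase, at 210 ± 27.2 and 45.4 ± 4.77 (log2 -2.21 ± 0.14). Of the 11 further gluconeogenic genes tested, 8 were called lower and 2 higher in DKO (median -1.37), beside the same shares of all genes. The 2 that rose were Pck2 and G6pc3. Pck2, the mitochondrial form of Pck1, was at 5.14 ± 1.36 CPM in WT and 37.1 ± 5.49 in DKO (SD; log2 2.85 ± 0.18, adjusted p = 9.4e-12). G6pc3, the broadly expressed form of G6pc, changed by 1.37 ± 0.16 on the log2 scale and was named after its values were seen.

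Pairs of enzyme forms that serve the same reaction, 4 in all, were compared within each library, a ratio on which scaling has no bearing. The pairs were chosen after the values were seen, so they are described without a test. The Pck2 to Pck1 ratio of counts was 0.0015 in WT and 0.0664 in DKO (from the mean log2 ratio), with log2 values of -9.93 to -9.10 and -4.83 to -2.80. For G6pc3 to G6pc the log2 ratio was -5.97 ± 0.50 in WT and -2.10 ± 0.70 in DKO (SD), and for Gpt2 to Gpt 0.18 ± 0.19 and 2.48 ± 0.52. Mat2a to Mat1a stood at -4.58 ± 0.46 and -1.86 ± 0.52. In each of the 4 pairs every DKO library lay above every WT library.

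The triple knockouts lay between DKO and WT in most of these ratios. In p62 TKO the log2 ratio was -6.41 ± 0.63 for Pck2 to Pck1, -3.75 ± 0.99 for G6pc3 to G6pc, 1.27 ± 0.21 for Gpt2 to Gpt and -2.98 ± 0.29 for Mat2a to Mat1a. G6pc3 to G6pc overlapped with DKO through p62 TKO replicate 4 alone, and no ratio overlapped without that library. Leaving it out moved the difference of p62 TKO from DKO from -1.65 to -2.10 for G6pc3 to G6pc. In Nrf2 TKO the same ratios were -7.85 ± 0.71, -6.05 ± 0.89, 1.21 ± 0.31 and -4.28 ± 0.21, none overlapping DKO. The numerator and the denominator moved apart differently among the pairs. Mat2a, at 137 ± 11.4 CPM in WT and 159 ± 14.3 in DKO, was not called (log2 0.21 ± 0.12, adjusted p = 1.3e-01), and its ratio moved with Mat1a, whereas Pck2 rose as Pck1 fell. The 8 of 8 cholangiocyte markers higher in DKO stand beside these ratios, and their part was not tested.

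**Figure D5:**
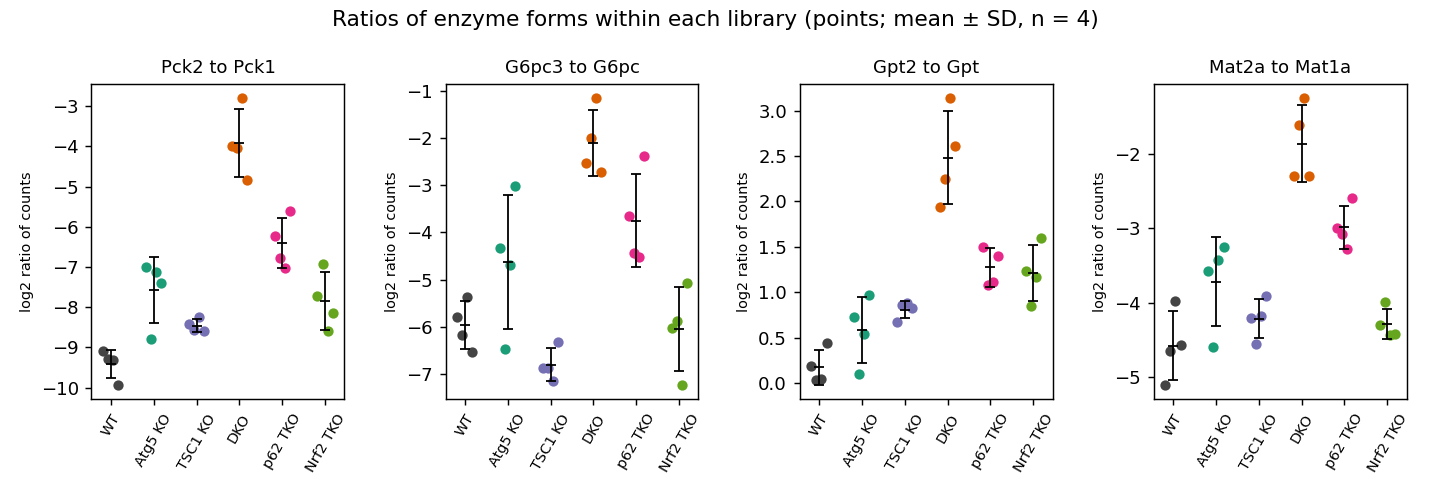
Points are log2 ratios of the counts of 2 enzyme forms in each library, with mean ± SD by genotype. DKO has the highest mean for all 4 ratios, and its libraries lie above all WT libraries in each.

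Some member counts can include reads of overlapping genes. Gstz1, Sds, Got2, Bckdha, Mccc1, Bhmt, Dmgdh and Sardh overlap a gene on the opposite strand, and Aldh4a1 and Hibadh one on the same strand. Libraries were stranded per the labels, but no source used here gives the strand setting of the counts.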

How the data were processed

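Gene-level read counts from 24 mouse liver libraries were used as deposited by the authors. Reads had been trimmed with Trimmomatic 0.36, aligned with HISAT2 2.1.0 to GRCm38 and counted with HTSeq, per the submitters' processing notes. The HTSeq version, annotation release and strand setting of the counts: not given in the sources used here. Of 33019 gene identifiers, 32953 were matched to names in GENCODE release M21 and 66 were not.

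Groups came from the labels. Counts were tested with edgeR 4.0.16 (R 4.3.3, limma 3.58.1) by robust quasi-likelihood fits with TMM factors, a filter on low counts (filterByExpr), 1 mean per genotype over all 24 libraries and 18 residual degrees of freedom. The p-values were adjusted by Benjamini and Hochberg over 15851 genes, and called at 0.05. Each SE was taken as the absolute log2 fold change over the root of its F statistic. The scripts were tested on simulated data. Total counts of 10494080 to 13057467 limit precision for low genes only, and counting error is contained in the spread between libraries. Alternatives were scaling by total counts alone, DESeq2 1.42.0 or only its size factors, a fit without the low-count filter, fits to the compared groups alone, a replicate block, and leaving out each library. Tables and plots used Python 3.11.15, pandas 2.3.3, numpy 2.4.6 and matplotlib 3.10.9.

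The members, the lists and the comparisons were chosen with earlier results of these data known. Values in every library are given for the member of each pathway that changed most in DKO, for the 4 members with the smallest adjusted p in each direction of each comparison, for a member whose sign in DKO differs from the rest and for members that a comparison singles out. From each other list, the text may name the 3 genes with the smallest adjusted p in DKO versus WT and the 2 most abundant by mean CPM.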

Additional observations from a re-analysis of the deposited data

Results flagged for a closer look

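Single libraries stood far from the other 3 of their genotype in 19 of 240 combinations of member and genotype, by Dixon's test at the 95% level. Chance gives about 1 in 20, but the members share the same libraries, so the combinations are not independent. Atg5 KO replicate 2 was the highest library for Fbp1 (1037 CPM), Tat (3719), Hpd (2566), Hal (779.0), Prodh (206.0), Got1 (435.1), Haao (602.5), Bckdhb (99.83), Cbs (1008), Mat1a (2852) and Aass (444.4). Nrf2 TKO replicate 3 was the highest for Hpd (3643), Got2 (459.7), Bhmt (3425) and Sardh (650.2). The others were Kynu in DKO replicate 4 (lowest, 33.84), Cbs in WT replicate 4 (lowest, 621.0), Gnmt in TSC1 KO replicate 2 (highest, 2524) and Ahcy in WT replicate 3 (highest, 1668).

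The change in DKO differed from the sum of the Atg5 KO and TSC1 KO changes for 39 members, tested as an interaction on the log2 scale. In gluconeogenesis the interaction was -1.41 for Pck1, -2.79 for G6pc, -2.33 for Fbp1 and -1.68 for Pcx. Among genes of tyrosine breakdown the interaction was -2.07 for Tat, -2.57 for Hpd, -2.95 for Hgd, -1.95 for Gstz1 and -2.11 for Fah. In tryptophan breakdown the interaction was -2.34 for Tdo2, -3.17 for Kmo, -2.34 for Kynu and -3.72 for Haao. Among genes of histidine breakdown the interaction was -3.10 for Hal, -2.97 for Uroc1, -2.51 for Amdhd1 and -2.59 for Ftcd. In serine and glycine breakdown the interaction was -2.22 for Sds, -1.33 for Amt and -0.64 for Gcsh. Among genes of proline breakdown the interaction was -1.59 for Prodh and -1.90 for Aldh4a1. Among the transaminases the interaction was -2.69 for Got1, -1.61 for Got2, -1.75 for Gpt and -0.53 for Gpt2. Among genes of branched-chain and lysine breakdown the interaction was -1.15 for Bckdha, -1.01 for Bckdhb, -1.19 for Mccc1, -1.69 for Ivd, -2.20 for Hibadh and -1.84 for Aass. In methionine and methyl groups the interaction was -1.20 for Mat1a, -3.01 for Gnmt, -1.22 for Ahcy, -1.37 for Bhmt, -2.37 for Cbs, -2.13 for Dmgdh and -2.38 for Sardh. Gldc was the remaining member. The 40 members share the same 16 libraries in this contrast, so these are not independent results.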

How the results depend on the processing

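Directions and calls were compared under 7 kinds of alternative. Scaling by total counts alone moved most. In Atg5 KO versus WT 1 member was then called higher and 1 lower, in DKO versus WT the median of the members was -1.38 with 1 called higher, and the interaction median was -1.55. Nrf2 TKO versus DKO had a median of 1.61 with 2 called lower, and p62 TKO versus DKO one of 1.04. Against WT, Nrf2 TKO had a median of 0.11 with 8 called higher and 5 lower, p62 TKO one of -0.36 with 2 higher and 13 lower, and TSC1 KO one of 0.17 with 4 higher. In p62 TKO versus Nrf2 TKO 1 was called higher. Among the changes named in the text, signs turned on total counts for Gcsh (0.0313 in Atg5 KO, 0.0702 in DKO and 0.0081 in p62 TKO versus WT, -0.0621 in p62 TKO and -0.313 in Nrf2 TKO versus DKO) and Gldc (0.28 in DKO and 0.31 in p62 TKO versus WT, and -0.29 when Nrf2 TKO was set against DKO). They also turned for Gpt2 (-0.43 in Nrf2 TKO and -0.0343 in p62 TKO versus DKO), Mat2a (-0.17 in p62 TKO versus DKO) and, in p62 TKO versus WT, Amdhd1 (0.0096), Bckdhb (0.52), Sds (0.17) and Tdo2 (0.11). Members not named in a comparison turned too, as in Nrf2 TKO versus WT, where the median went from -0.22 to 0.11.

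With no filter on low counts, 6 members were called lower in Atg5 KO versus WT and 0 higher in Nrf2 TKO versus WT. With only the groups compared in the fit, 4 were called lower in Atg5 KO, 6 higher and 3 lower in TSC1 KO and 0 higher in Nrf2 TKO, all versus WT. That fit, which has fewer libraries, called 3691 genes in Nrf2 TKO versus WT and 1677 in p62 TKO versus Nrf2 TKO. DESeq2 called 2 higher in TSC1 KO versus WT, and its size factors in edgeR gave 0 higher in Nrf2 TKO versus WT. Bckdhb in p62 TKO versus WT, near 0, turned to 0.0192 with no filter and 0.0228 with only the groups compared, and ran from -0.1237 to 0.0819 without each library in turn, above 0 without WT replicate 1 or 4 or p62 TKO replicate 1 or 4. Gldc ran from -0.471 to 0.0227 there, above 0 without WT replicate 1, and Gpt2 in DKO versus WT from -0.1691 to 0.1043, below 0 without DKO replicate 2, WT replicate 2 or WT replicate 3. The cause of these moves was not tested.

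Without each library in turn, the count called lower in Atg5 KO versus WT ran from 3 to 23. For TSC1 KO versus WT the counts ran from 0 to 2 higher and 0 to 1 lower, the median from 0.0063 to 0.17 and the number of genes called from 1724 to 2272. For Nrf2 TKO versus WT the count called higher ran from 0 to 3 and the median from -0.3242 to -0.0973, and for p62 TKO versus WT from 0 to 1. The counts lower in DKO versus WT (38 to 39), below 0 for the interaction (35 to 40), higher in p62 TKO (35 to 37) and Nrf2 TKO (37 to 39) versus DKO, and lower in p62 TKO versus WT (28 to 34) and versus Nrf2 TKO (13 to 22) stayed within 1.5 times the count with all libraries. For p62 TKO versus Nrf2 TKO that count was 18.

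Replicate numbers are shared between genotypes but did not pair the libraries: the correlation of same-numbered libraries ran from -0.28 to 0.26 over 60 pairs, with 7 over 0.1, and 5 of 24 libraries correlated best with their own number. With the replicate number as a block, 38 members were called lower in DKO versus WT, 11 in Atg5 KO, 32 in p62 TKO and 0 higher in Nrf2 TKO versus WT, 3 were called higher in TSC1 KO versus WT, 36 below 0 for the interaction, 37 and 38 higher in p62 TKO and Nrf2 TKO versus DKO, and 21 lower in p62 TKO versus Nrf2 TKO. Bckdhb stood at 0.0019 in p62 TKO versus WT under the block.

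All 40 members passed the filter on low counts, but counts over whole genes do not separate isoforms or overlapping genes. The labels give no batch, sex or animal, and none of these was set against genotype.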

Other observations

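Transcription factors, coactivators, receptors and signalling proteins that act on these pathways were counted from a list of 18 regulators, chosen by name with earlier results known. In DKO versus WT 13 were called lower and 1 higher (median log2 fold change -1.55), where 32.3% of all tested genes were lower and 37.1% higher. Creb3l3, a hepatocyte factor activated in fasting, was at 383 ± 34.9 CPM in WT and 59.0 ± 22.6 in DKO (SD, n = 4; log2 -2.70 ± 0.21, adjusted p = 1.7e-10). Gcgr, the glucagon receptor, was at 407 ± 46.0 and 69.1 ± 25.7 (log2 -2.56 ± 0.21, adjusted p = 3.3e-10). Cebpa, a factor of the differentiated hepatocyte, was at 538 ± 48.0 and 130 ± 17.9 (log2 -2.05 ± 0.14, adjusted p = 2.3e-11), and Hnf4a, another such factor, at 906 ± 52.5 and 239 ± 27.0 (log2 -1.92 ± 0.26, adjusted p = 5.5e-07). Against DKO, 11 of the 18 were called higher in p62 TKO, where 22.3% of all genes were. The count was 14 for Nrf2 TKO, where 26.7% of genes were called higher. Between the triple knockouts Gcgr was not called, at 229 ± 51.2 CPM in p62 TKO and 220 ± 44.2 in Nrf2 TKO (log2 0.05 ± 0.20, adjusted p = 8.9e-01). Ppargc1a, a coactivator of gluconeogenic genes, was the 1 called higher in DKO, at 9.63 ± 1.68 CPM in WT and 19.04 ± 6.34 in DKO (log2 0.98 ± 0.27, adjusted p = 2.4e-03). It stood highest in TSC1 KO, at 35.0 ± 11.9 CPM (log2 1.86 ± 0.27, adjusted p = 8.4e-05), and was named after its values were seen.

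Of 17 tested genes of amino acid, folate and polyamine synthesis and of growth-linked enzyme forms such as Mat2a, 10 were called higher and 3 lower in DKO versus WT (median 0.70), beside 37.1% and 32.3% of all genes. Psat1, phosphoserine aminotransferase, was at 0.968 ± 0.299 CPM in WT and 35.4 ± 7.39 in DKO (log2 5.18 ± 0.36, adjusted p = 3.3e-11). It stayed high in p62 TKO, at 23.6 ± 7.94, and was lower in Nrf2 TKO, at 5.18 ± 1.48 (p62 TKO versus Nrf2 TKO, log2 2.18 ± 0.29, adjusted p = 2.9e-05). Phgdh, which starts serine synthesis and was named after its values were seen, was at 0.230 ± 0.0962 CPM in WT, a few counts a library, and 42.5 ± 6.81 in DKO (log2 7.48 ± 0.54, adjusted p = 5.7e-11). In p62 TKO and Nrf2 TKO Phgdh was at 5.18 ± 1.77 and 4.12 ± 2.57 CPM, and was called lower than in DKO in both (adjusted p = 9.4e-07 and 1.2e-07). Shmt2, the mitochondrial serine hydroxymethyltransferase, went the other way from 284 ± 44.7 CPM in WT to 57.7 ± 6.80 in DKO (log2 -2.30 ± 0.15, adjusted p = 1.8e-11). All 8 cholangiocyte markers were higher in DKO as well, and their part in these rises was not tested.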
